A study of Mus musculus with 4 samples.

Results

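The globin genes were followed through 4 RNA sequencing libraries of mouse cells sorted as long-term haematopoietic stem cells (LT-HSCs). They were chosen by symbol: the adult alpha globins Hba-a1 and Hba-a2, the adult beta globins Hbb-bs and Hbb-bt, the embryonic globins Hba-x, Hbb-bh1 and Hbb-y, and the alpha globin chaperone Ahsp. Of the 8 symbols, 7 were matched to 7 of the 51912 Ensembl genes of the files, and Ahsp was not analysed here. The series compared 2 wild-type (WT) libraries with 2 Fam122a knockout (KO) libraries, to find genes that depend on Fam122a, whose product restrains the phosphatase PP2A. Each library was made from cells pooled from 3 animals of strain C57BL/6, aged 8 to 12 weeks, and the gate took LSK cells (lineage-negative, Sca1+, Kit+) without CD34 and Flk2. The KO allele is not given in the sources used here. Fam122a was listed at 18.4 and 7.46 FPKM in WT replicates 1 and 2, and at 0 in both KO libraries.

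Haemoglobin of the adult mouse is a tetramer of alpha and beta chains, which red cell precursors make in near balance because free chains, above all free alpha chains, damage the cell. The alpha genes lie in one cluster and the beta genes in another, and in each the embryonic gene is used by the primitive red cells of the yolk sac and then silenced as adult genes take over. The transcription factors GATA1 and KLF1 drive the adult genes. Stem cells are not known for making haemoglobin, so globin RNA in a sorted stem cell library can also come from red cell precursors or from free RNA of lysed cells. In bulk RNA the number of such cells and the RNA per cell cannot be told apart.

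The 4 libraries were unlike in quality. FPKM, the number of fragments scaled to gene length and to library depth, summed over all features to 816028 to 1048400 in 3 libraries and to 1289940 in WT replicate 2. In WT replicate 2, 53.9% of that sum lay at loci with no gene name, against 9.14% in WT replicate 1 and 1.74% and 1.81% in KO, and the median over 80 ribosomal protein genes was 13.0 FPKM there against 317 to 476 FPKM in the others. The steps between low values of single-exon genes implied 2500000 fragments in WT replicate 2 and 4310000 to 6660000 in the others. WT replicate 2 is therefore given apart from the comparison of KO with WT replicate 1. That comparison has a single WT library, which is assumed to vary as the KO pair does. Of 18 genes that mark LT-HSCs or their gate, 12 were above 10 FPKM in WT replicate 1 and both KO libraries, among them Procr, Hlf, Mecom and Kit. The others were Hoxb5 (0.14, 0.64 and 1.94 FPKM in WT replicate 1 and KO replicates 1 and 2), Fgd5 (3.83, 4.86 and 3.58), Slamf1 (2.97, 6.91 and 4.25), Vwf (5.45, 5.26 and 10.7), Tek (41.5, 4.43 and 2.74) and Ctnnal1 (11.9, 2.87 and 3.64). The 12 include markers that LT-HSCs should lack. Cd34, which the gate excludes, was at 179, 87.7 and 62.1 FPKM, Flt3, the gene of Flk2 and excluded too, at 26.2, 36.2 and 24.7 FPKM, and Cd48, a marker of later progenitors, at 215, 162 and 129 FPKM.

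The sequences in front of the adult genes are shown first, as a description, and their bearing on the levels was not tested. They are the 110 bases before each gene's start in RefSeq (GRCm38.p6), read 5′ to 3′ on the gene's strand, with capitals marking matches on either strand to 4 motifs known from globin promoters. They were CACCC for the box that KLF1 binds, CCAAT for the box upstream of many promoters, ATATAA for the TATA box, and GATAA for a site of GATA1. On the opposite strand the second of them reads ATTGG. Promoter entries were found for 6 of the 7 genes, not for Hbb-bh1.
Hba-a2: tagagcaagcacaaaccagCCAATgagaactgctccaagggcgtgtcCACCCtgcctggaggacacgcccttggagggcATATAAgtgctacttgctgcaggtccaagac
Hbb-bs: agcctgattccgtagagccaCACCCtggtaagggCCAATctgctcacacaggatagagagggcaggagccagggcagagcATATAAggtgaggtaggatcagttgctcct
Hbb-bt: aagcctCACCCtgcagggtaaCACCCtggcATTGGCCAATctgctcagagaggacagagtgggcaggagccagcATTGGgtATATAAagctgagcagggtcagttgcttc
Hba-x: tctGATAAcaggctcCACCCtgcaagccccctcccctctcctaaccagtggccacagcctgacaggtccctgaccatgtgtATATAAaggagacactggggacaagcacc
Hbb-y: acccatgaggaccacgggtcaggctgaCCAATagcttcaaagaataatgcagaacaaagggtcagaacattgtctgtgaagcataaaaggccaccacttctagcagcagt
The windows are chr11:32296382-32296491 for Hba-a2 and chr11:32276490-32276599 for Hba-x on the plus strand. On the minus strand they are chr7:103827929-103828038 for Hbb-bs, chr7:103813924-103814033 for Hbb-bt and chr7:103853208-103853317 for Hbb-y. The gene positions given further below are those of GENCODE M21, whose starts differ from the RefSeq starts used here. By those positions the windows of Hbb-bs and Hba-x lie within the gene, and the other printed windows overlap it in part. The 250 bases before Hba-a1 share an unbroken run of 247 bases with those before Hba-a2, so only the latter are printed. In Hba-a2 the CCAAT match began 91 bases before the gene's start, the CACCC match 63 and the ATATAA match 31 bases before it. In Hbb-bs the CACCC match lay farther out than the CCAAT match, at 90 and 76 bases, with ATATAA at 30. Hbb-bt held 2 CACCC and 3 CCAAT matches, of which 2 CCAAT matches were on the opposite strand and a pair of them abutted. All 4 adult genes held the first 3 motifs together, as did 0.228% of 32851 promoter entries of that length. None of the 4 held GATAA in its window. Singly, CACCC was found in 29.6%, CCAAT in 20.2%, ATATAA in 4.09% and GATAA in 9.43% of entries. Of the embryonic genes, Hba-x held each motif other than CCAAT, and Hbb-y held only CCAAT. A match of letters is a description and shows no binding.

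Within each adult pair the coding sequences were almost the same, which limits what can be said of one gene alone. Over 429 coding bases (GENCODE M21), Hba-a1 and Hba-a2 differed at 1 base, C381T, counted from the A of the start codon with the Hba-a1 base first. Over 444 coding bases, Hbb-bs and Hbb-bt differed at 1 base, C417T, with the Hbb-bs base first. The 45 coding bases around each difference are shown with the differing base in capitals.
Hba-a1: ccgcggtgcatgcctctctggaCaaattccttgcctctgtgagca
Hba-a2: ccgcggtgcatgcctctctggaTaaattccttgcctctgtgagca
Hbb-bs: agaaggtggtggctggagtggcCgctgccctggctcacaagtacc
Hbb-bt: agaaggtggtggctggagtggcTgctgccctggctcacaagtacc
Identical runs reached 380 bases in the alpha pair and 416 in the beta pair, so most coding fragments could not be assigned to one member. The tool that shared them out is not given in the sources used here, and the split within a pair is uncertain. The embryonic genes were more distant: Hbb-y shared 74.3% of coding bases with Hbb-bs, Hbb-bh1 74.1% with Hbb-bs, and Hba-x 62.0% with Hba-a1.

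The adult globins were among the most abundant transcripts of WT replicate 1 and of both KO libraries. They were 280- to 297-fold lower in WT replicate 2. Against WT replicate 1 the KO values lay 1.06 to 1.68 times higher, and no adult globin passed the test.

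Hba-a2 (chromosome 11, 32296489 to 32297298, plus strand, GRCm38, 3 exons) had the highest FPKM in KO of the 4 adult genes. It was at 16293 and 54.9 FPKM in WT replicates 1 and 2 and at 19977 and 26189 FPKM in KO replicates 1 and 2. It ranked 4 among Ensembl genes in WT replicate 1, 3 in KO replicate 1, 1 in KO replicate 2 and 2016 in WT replicate 2. Both KO libraries were above WT replicate 1, and WT replicate 2 stood far below all 3. The KO mean was 23083 FPKM ± 4392 (SD, n = 2), 1.42 times WT replicate 1 (log2 difference 0.49, SE 0.55, limma adjusted p = 0.590).

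Hba-a1 (chromosome 11, 32283511 to 32284465, plus strand, 3 exons) encodes the same chain upstream in the cluster. It was at 12369.8 and 43.0 FPKM in the WT pair and 14862 and 20804.5 FPKM in the KO pair. Again both KO values lay above WT replicate 1. The KO mean was 17833 FPKM ± 4202 (SD, n = 2), 1.44 times WT replicate 1 (log2 difference 0.51, SE 0.52, limma adjusted p = 0.550).

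Hbb-bs (chromosome 7, 103826534 to 103828096, minus strand), the major adult beta globin gene here, was at 17437 and 59.8 FPKM in the WT pair and 18513 and 23897.5 FPKM in the KO pair. KO replicate 1 was only 1.06 times WT replicate 1, the smallest ratio among the 4 genes. The KO mean was 21205 FPKM ± 3807 (SD, n = 2), 1.22 times WT replicate 1 (log2 difference 0.27, SE 0.54, limma adjusted p = 0.766).

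Hbb-bt (chromosome 7, 103812524 to 103813996, minus strand, 3 exons) was the lowest of the adult genes in every library, at 5193 and 18.5 FPKM in the WT pair and 5758 and 7599 FPKM in the KO pair. Its KO mean was 6678 FPKM ± 1302 (SD, n = 2), 1.29 times WT replicate 1 (log2 difference 0.35, SE 0.37, limma adjusted p = 0.566).

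Among the 3 highest genes the order in FPKM turned between libraries. Hbb-bs was highest in both WT libraries and Hba-a2 in both KO libraries. Hba-a1 stood below Hbb-bs and Hba-a2, and above Hbb-bt, in each of the 4 libraries. This order depends on the scaling to gene length. As estimated fragments, Hbb-bs was above Hba-a2 in each library. The values were 38951 against 29299 and 83.3 against 62.7 in the WT pair. In the KO pair they were 66291 against 58105 and 74335 against 65880. Hba-a1 was above Hba-a2 in WT replicates 1 and 2 and KO replicate 2 by that measure. In FPKM, Hba-a2 over Hbb-bs was 0.934 and 0.919 in the WT pair and 1.08 and 1.10 in the KO pair (KO mean 1.09 ± 0.0119, SD, n = 2). The spread of each gene between the KO libraries is shared, as KO replicate 2 was the higher for all 4.

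**Figure D1:**
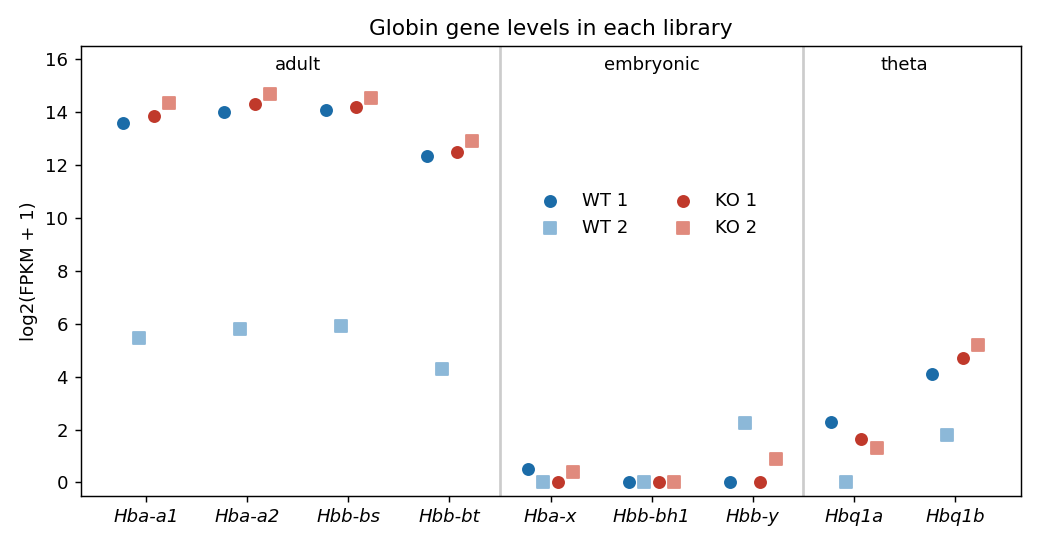
Level of 9 globin genes as log2(FPKM + 1), with 1 point per library (blue WT, red KO; circles replicate 1, squares replicate 2). The adult genes lie between 12 and 15 in WT 1 and both KO libraries and between 4 and 6 in WT 2, while the embryonic genes stay below 3 everywhere.

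The filter, at least 1 FPKM in at least 2 of the libraries compared, kept these 4 adult genes and none of the 3 embryonic ones. In the comparison with WT replicate 1, limma called 0 of the 4, where 0.181% of 13848 genes were called higher and 1.42% lower in KO, and 0 of the 4 had an unadjusted p under 0.05. The direction of the calls over all genes depended on scaling: 25 were higher and 196 lower as deposited, and 1128 higher and 539 lower with equal sums over Ensembl genes. All 4 had both KO libraries above WT replicate 1, as did 48.5% of all genes tested, while 35.7% had both below. That count is thus a common one, and the 4 are 2 pairs of near copies. Their median log2 difference was 0.42, against 0.12 over all genes tested. Relative to that shift, the 4 differences were 0.39 for Hba-a1, 0.37 for Hba-a2, 0.16 for Hbb-bs and 0.23 for Hbb-bt. The KO libraries differed from each other by amounts of similar size. Between KO replicates 2 and 1 the log2 difference was 0.49 for Hba-a1, 0.39 for Hba-a2, 0.37 for Hbb-bs and 0.40 for Hbb-bt. KO replicate 1 alone lay above WT replicate 1 by 0.26, 0.29, 0.09 and 0.15 in the same order, which for Hbb-bs is -0.05 relative to the shift of all genes in that pair of libraries. With all 4 libraries the log2 differences were 4.35 to 4.58 with SEs of 8.25 to 23.2, and limma called 0 of the 4 and 0% of 18214 genes in either direction (233 higher and 3837 lower at an unadjusted p under 0.05). All 4 had both KO libraries above both WT libraries, as did 30.8% of those genes, and 35.7% had both below. Against WT replicate 2 alone, each of the 4 passed (log2 differences 8.40 to 8.68, limma adjusted p = 0.000348 to 0.000371), as did 11126 of 13875 genes.

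The 4 adult genes together held 5.38% of the FPKM of Ensembl genes in WT replicate 1, 7.23% in KO replicate 1 and 9.80% in KO replicate 2. In WT replicate 2 they held 0.0297%. The KO mean of 8.51% ± 1.81 (SD, n = 2) was 1.58 times the value in WT replicate 1, and both KO values were above it. The summed FPKM itself was 51294 in WT replicate 1 and 59110.2 and 78490 in KO, a ratio of 1.34. The share moved more than the sum because the Ensembl genes of WT replicate 1 summed to more FPKM (952543) than those of KO (817438 and 801266). A share therefore depends also on what else each library holds. The 18 neutrophil genes of a fixed list held 19.2% in WT replicate 1 and 9.98% and 8.84% in KO. Over all 4 libraries an exact two-sided permutation test of the share gave p = 0.333, the smallest possible, so no difference could pass.

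**Figure D2:**
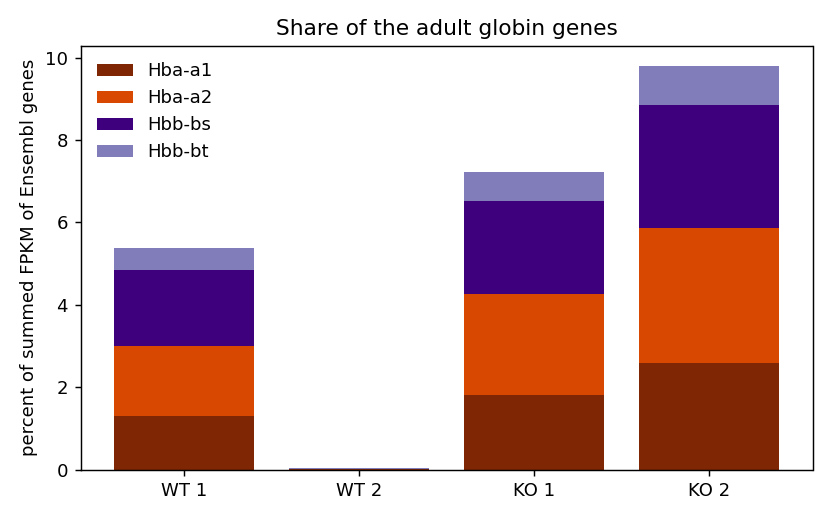
Percent of the summed FPKM of Ensembl genes held by each adult globin gene, stacked, in each library (x axis). The stack reaches 5.38% in WT 1, 7.23% in KO 1 and 9.80% in KO 2, and is barely visible in WT 2 at 0.0297%.

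The balance of alpha to beta was higher in both KO libraries than in both WT libraries. The summed FPKM of Hba-a1 and Hba-a2 over that of Hbb-bs and Hbb-bt was 1.27 in WT replicate 1 and 1.25 in WT replicate 2, and 1.44 and 1.49 in KO replicates 1 and 2. The groups did not overlap, and the gap between them was wider than the difference within either pair. The KO mean of 1.46 ± 0.0400 (SD, n = 2) was 1.16 times WT replicate 1, a log2 difference of 0.21. An exact two-sided permutation test over the 4 libraries gave p = 0.333, the smallest that 2 against 2 libraries allow, so the difference cannot pass a threshold of 0.05. The value in WT replicate 2 rests on an estimated 233 adult globin fragments, of which 54.5% were alpha (exact 95% binomial interval 47.9 to 61.0%, counting error only). That interval also covers the shares of 57.8% and 58.9% in KO, so WT replicate 2 hardly narrows the comparison. WT replicate 1, with an estimated 108373 such fragments and 54.7% alpha, carries it. Library amplification multiplies molecules, so these intervals are too narrow as a measure of cells.

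Within the alpha pair the libraries did not separate by genotype. Hba-a1 over Hba-a2 was 0.759 and 0.784 in WT and 0.744 and 0.794 in KO, with the KO values on either side of the WT values (exact permutation p = 1). Hbb-bt over Hbb-bs was 0.298 and 0.310 in WT and 0.311 and 0.318 in KO, the groups being barely apart (exact permutation p = 0.333). At 0.333 or above, none of the 3 ratios tested could pass, adjusted or not. Of the adult sum, Hbb-bs held 34.0% and 33.9% in WT and 31.3% and 30.4% in KO, and Hba-a2 held 31.8% and 31.2% in WT and 33.8% and 33.4% in KO. The 4 genes thus kept nearly the same proportions in WT replicate 2 as in WT replicate 1 although the level was 291-fold lower there.

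**Figure D3:**
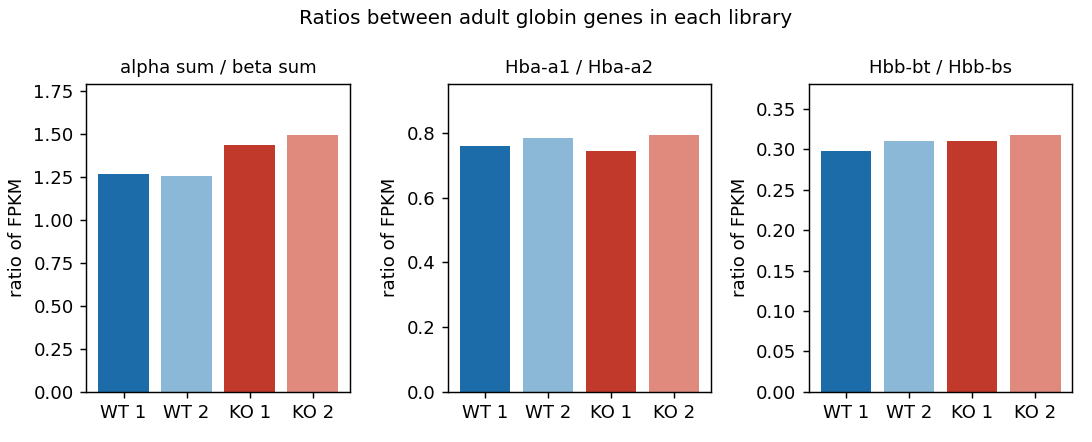
Ratios of FPKM between adult globin genes in each library: the alpha sum over the beta sum, Hba-a1 over Hba-a2, and Hbb-bt over Hbb-bs. Bars start at 0. The first ratio is 1.25 to 1.27 in WT and 1.44 to 1.49 in KO, and the other two vary little.

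The embryonic globins were at or near 0 in every library. Hba-x, the zeta chain gene at the embryonic end of the alpha cluster (chromosome 11, 32276400 to 32278116, plus strand), was at 0.42 and 0 FPKM in the WT pair and 0 and 0.30 FPKM in the KO pair. Both values above 0 correspond to about 1 fragment (estimates of 1.25 and 1.23). Hbb-bh1, an embryonic beta gene (chromosome 7, 103841637 to 103843164, minus strand), was listed at 0 in all 4 libraries, where the floor of 3 fragments corresponds to 1.92 and 2.98 FPKM in the WT pair and 1.18 and 1.37 FPKM in the KO pair. Hbb-y, the epsilon-type beta gene (chromosome 7, 103851749 to 103853216, minus strand), was at 0 and 3.80 FPKM in the WT pair and 0 and 0.87 FPKM in the KO pair. That is an estimated 4.02 fragments in WT replicate 2 and 2.01 in KO replicate 2. In WT replicate 2, 15.8% of 1406 olfactory receptor genes, which blood cells are not known to use, were at the level of Hbb-y or above, so this value is within what silent genes showed there. In WT replicate 1, 27.2% of them were at the level of Hba-x or above. Such genes were above 0 in 57.8% and 56.9% of cases in WT replicates 1 and 2, against 12.6% and 14.0% in KO replicates 1 and 2. WT replicate 1 thus shared this background with WT replicate 2. Embryonic globins made up 0.000819% of globin FPKM in WT replicate 1 and 0.00149% in KO replicate 2. In WT replicate 2 the figure was 2.11%, on a globin total of 180 FPKM. No difference between KO and WT in the embryonic genes was detectable at this depth.

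Over the 4 libraries, 30.8% of all genes tested had both KO libraries above both WT libraries. Of the other globin genes, Hbq1b, a theta-type gene of the alpha cluster, was also highest in KO, at a far lower level. It was at 16.0 and 2.51 FPKM in the WT pair and 25.1 and 35.4 FPKM in the KO pair, with both KO values above both WT values, and did not pass (log2 difference from WT replicate 1 of 0.86, SE 0.28, limma adjusted p = 0.156). Its close relative Hbq1a went the other way, at 3.90 and 0 FPKM in the WT pair and 2.15 and 1.47 FPKM in the KO pair (-0.81, SE 0.40, limma adjusted p = 0.266). The estimates for Hbq1a rest on 5.95 fragments or fewer in any library. Hbb-bh2 was at 2.31 FPKM in WT replicate 2, an estimated 2.01 fragments, and at 0 in the other 3. The pseudogenes Hbb-bh0 and Hbb-bh3 and the muscle gene Mb were listed at 0 throughout, and Ngb and Cygb, globins of neurons and of fibroblast-like cells, stayed at or below 0.38 FPKM. Adgb, a large globin-domain gene known from testis, was at 7.95 and 64.2 FPKM in the WT pair and 0.21 and 0.82 FPKM in the KO pair. Its genomic span is 22.1 times its exonic length, and no test without WT replicate 2 was made because only 1 of those 3 libraries reached 1 FPKM.

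Other red cell genes were set beside the globins from lists of known function. Heme is the iron-bearing group of haemoglobin, and the genes of its synthesis and iron supply were mostly higher in KO than in WT replicate 1 without passing. Of 28 tested, 0 were called in either direction, 23 had both KO libraries above WT replicate 1 (48.5% of all genes did), and the median log2 difference was 0.82. At an unadjusted p under 0.05, 16 were higher and 1 lower, where 17.6% of all genes tested were higher and 11.5% lower. Alas2, the red cell form of the first enzyme of heme synthesis and named after its values were seen, was at 169 and 2.68 FPKM in the WT pair and 299 and 412 FPKM in the KO pair (limma adjusted p = 0.108). Cpox, a later enzyme, was at 19.4 and 2.82 FPKM in the WT pair and 53.4 and 81.2 FPKM in the KO pair (log2 difference 1.71, SE 0.31, adjusted p = 0.0865). The mitochondrial iron importer Slc25a37 was at 13.4 and 0.85 FPKM in the WT pair and 31.6 and 38.0 FPKM in the KO pair. Hebp1, a heme-binding protein gene, had lower values in KO, 33.1 and 0.83 FPKM in the WT pair and 9.77 and 11.2 FPKM in the KO pair (-1.57, SE 0.24, adjusted p = 0.0721).

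Membrane and skeleton genes gave the same picture. Of 25 tested, 0 were called and 24 had both KO libraries above WT replicate 1, as did 48.5% of all genes. The median log2 difference was 0.93. At an unadjusted p under 0.05, 12 of the 25 were higher and 0 lower (17.6% and 11.5% over all genes). Slc4a1, the anion exchanger that anchors the red cell skeleton, was at 47.6 FPKM in WT replicate 1, against 168 and 340.5 FPKM in the KO libraries (2.31, SE 0.47, adjusted p = 0.0935). The skeleton gene Epb41 was at 30.2 FPKM in WT replicate 1, against 62.0 and 66.2 FPKM in the KO libraries (1.06, SE 0.17, adjusted p = 0.0760).

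Genes of late red cells and reticulocytes had a median of 0.84. Of 27 tested, 24 were above WT replicate 1 in both KO libraries, as were 48.5% of all genes. In this list 1 gene was called, where 0.181% of all genes were called higher and 1.42% lower. That gene, Alox15, rose from 18.7 FPKM in WT replicate 1 to 287 and 172 FPKM in KO (3.50, SE 0.36, limma adjusted p = 0.0493). It encodes a lipoxygenase that helps clear reticulocyte organelles and is also made by eosinophils and macrophages. It was no longer called with a pseudocount of 0.1 FPKM (adjusted p = 0.0804), with no filter (0.0974) or with a filter at 5 FPKM (0.0818). Unlike the globins and most of the list, it was higher in KO replicate 1 than in KO replicate 2.

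**Figure D4:**
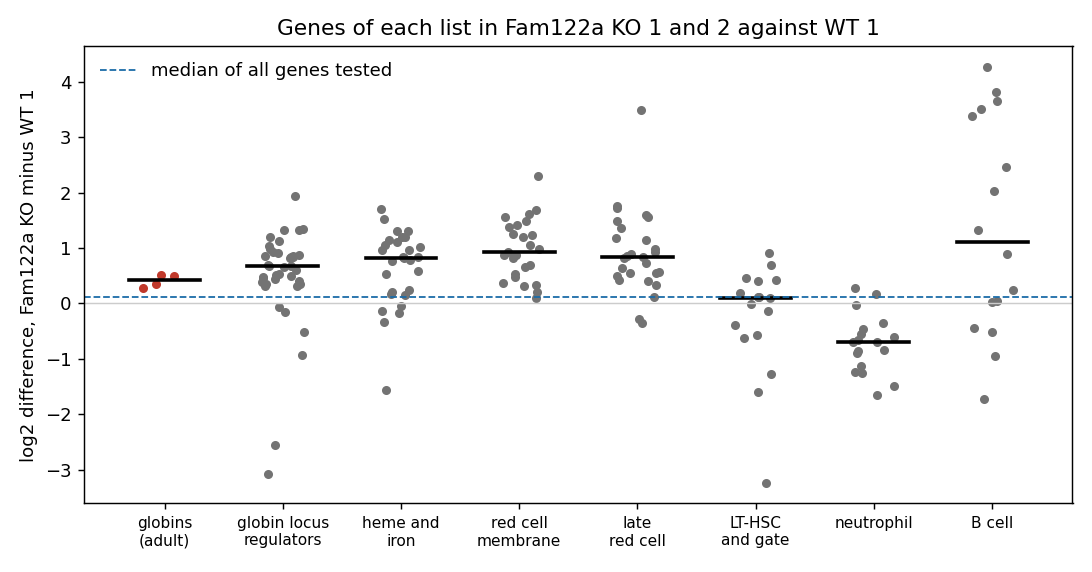
Log2 difference, Fam122a KO minus WT 1, of each gene tested in 8 lists (points), with the list median (black bar) and the median of all genes tested (dashed line, 0.12). The adult globins lie at 0.27 to 0.51, below the medians of the heme (0.82), membrane (0.93) and late red cell (0.84) lists.

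The globins were not the red cell genes with the widest gap from WT replicate 1. Their median of 0.42 was below those of the heme, membrane and late red cell lists, though these differences between lists were not tested. For each FPKM of the membrane list there were 50.5 FPKM of adult globin in WT replicate 1 and 37.0 and 37.3 in KO. For the late red cell list the figures were 21.2 in WT replicate 1 and 18.8 and 19.3 in KO, and for the heme list 8.85 in WT replicate 1 and 9.14 and 11.8 in KO. In WT replicate 2 the same ratios were 0.333, 1.15 and 0.622. From WT replicate 1 to WT replicate 2, globin RNA was thus reduced by more than the sums of these lists were. The heme list sum follows its most abundant genes, Fth1 and Ftl1, at 2315 and 2149.5 of 5795 FPKM in WT replicate 1. In KO replicates 1 and 2, Fth1 was at 2111 and 2362 FPKM and Ftl1 at 2368 and 1623 FPKM. The heme ratio therefore mainly sets the globins beside Fth1 and Ftl1, not beside the typical gene of that list. Among 8917 genes at 10 FPKM or more in WT replicate 1, the median gene was 2.37 lower in WT replicate 2 on the log2(FPKM + 1) scale, and the adult globins were 8.06 to 8.19 lower. For each adult globin, 99.5% of those genes were lower by less. A gene cannot fall by more than its own level on this scale, so genes near 10 FPKM could not fall as far. That rank therefore depends on how abundant the globins were in WT replicate 1. The abundant neutrophil genes S100a8 and S100a9 were 8.85 and 9.31 lower, more than the globins.

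The regulators of the globin loci were mostly higher in KO as well. Over all genes tested, 48.5% had both KO libraries above WT replicate 1, and 0.181% were called higher and 1.42% lower. Of 40 tested, 0 were called higher and 1 lower, 34 had both KO libraries above WT replicate 1, and the median log2 difference was 0.67. Zfpm1, the partner of GATA1, was at 6.00 and 0 FPKM in the WT pair and 30.2 and 22.0 FPKM in the KO pair (1.94, SE 0.29, adjusted p = 0.0726). Mbd3, part of a repressor complex at the embryonic genes, was at 53.2 FPKM in WT replicate 1, against 111 and 109 FPKM in the KO libraries. A further 3 regulators are named after their values were seen. Klf1 was at 26.4 FPKM in WT replicate 1, against 49.9 and 94.7 FPKM in the KO libraries, Gata1 at 16.9 and 37.3 and 51.9 FPKM, and Bcl11a, which silences embryonic globins, at 16.6 and 23.2 and 31.9 FPKM, none of them passing (limma adjusted p = 0.150, 0.0935 and 0.208).

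The regulator called lower was Hmga2, a chromatin protein of fetal cells, which fell from 48.9 FPKM in WT replicate 1 to 4.21 and 5.65 FPKM in KO (-3.08, SE 0.29, limma adjusted p = 0.0476). It was at 15.6 FPKM in WT replicate 2, and its genomic span is 17.0 times its exonic length. The call ended with a pseudocount of 0.1 FPKM (adjusted p = 0.0753), with no filter (0.0512) and with a filter at 5 FPKM (0.0698). Nr2c1, a nuclear receptor that represses embryonic beta genes, was at 32.0 and 91.7 FPKM in the WT pair and 4.54 and 4.63 FPKM in the KO pair and did not pass (-2.56, SE 0.27, adjusted p = 0.0502). Both genes were higher in WT replicate 2 than in either KO library too. Over the 4 libraries, 35.7% of all genes tested had both KO libraries below both WT libraries. The genomic span of Nr2c1 is 10.7 times its exonic length.

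Genes that handle excess globin chains and the oxidative damage they cause showed no call in 19 tested, with a median of 0.32 and 13 above WT replicate 1 in both KO libraries (48.5% over all genes). At an unadjusted p under 0.05, 5 of the 19 were higher and 1 lower, against 17.6% and 11.5% over all genes. Cat, the catalase gene, was at 54.3 and 0.33 FPKM in the WT pair and 105 and 99.1 FPKM in the KO pair (0.90, SE 0.15, adjusted p = 0.0821). Ppp1r15a, which restores translation after stress, was at 88.4 FPKM in WT replicate 1, against 166 and 173 FPKM in the KO libraries (adjusted p = 0.0769).

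The KO libraries themselves differed in the level of red cell RNA. KO replicate 2 was above KO replicate 1 for all 4 adult globins, with folds of 1.29 to 1.40. It was above for 25 of 28 heme genes, 22 of 25 membrane genes and 24 of 27 late red cell genes, against 52.8% of all genes tested. The median folds of these lists were 1.28, 1.52 and 1.35, beside 1.32 for the globins. Lists of other cells differed between the KO pools as well: 12 of 16 B cell genes were above (median fold 1.297), and 2 of 18 neutrophil and 2 of 15 platelet genes were (median folds 0.856 and 0.594). Within 1 genotype the globins thus differed between pools in the same direction as most other red cell genes and most B cell genes.

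**Figure D5:**
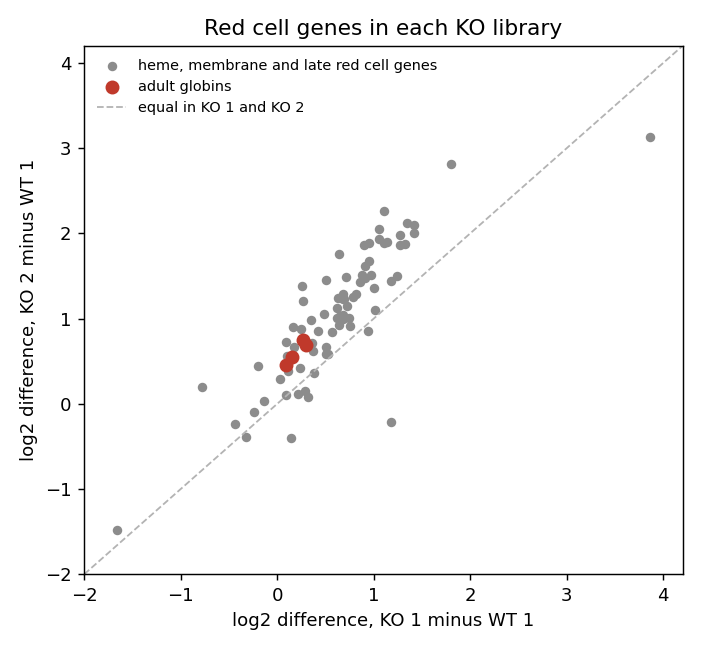
Log2 difference from WT 1 in KO 1 (x axis) and KO 2 (y axis) of each heme, membrane and late red cell gene tested (grey) and of the 4 adult globins (red). Most points lie above the dashed line of equal values, which shows KO 2 above KO 1, and the globins lie among the smaller differences.

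Markers of other cells moved as follows beside these results. The summed level of 18 neutrophil genes was 182611 FPKM in WT replicate 1, against 81562 and 70809 FPKM in the KO libraries, and that of 16 B cell genes was 6671 FPKM in WT replicate 1, against 5119 and 7936 FPKM in the KO libraries. The 16 platelet and megakaryocyte genes summed to 273 FPKM in WT replicate 1, against 231 and 161 FPKM in the KO libraries, and the 14 macrophage and monocyte genes to 3678 FPKM in WT replicate 1, against 2935 and 2186 FPKM in the KO libraries. In WT replicate 1 and KO no gene of these 4 lists was at 0 except the platelet gene Gp6 in KO replicate 2. In WT replicate 2 the sums were 377, 45.3, 59.7 and 36.5 FPKM, with 0, 3, 7 and 3 genes at 0. The sums follow their most abundant genes. Igkc made 4768 of the 6671 FPKM of the B cell list and Ly6c2 made 3289 of the 3678 FPKM of the macrophage list in WT replicate 1. The median B cell gene was at 34.0 FPKM in WT replicate 1, against 195 and 250.3 FPKM in the KO libraries. Of that list 10 of 16 genes had both KO libraries above, where 48.5% of all genes did, and its median log2 difference of 1.12 was larger than that of the globins or of any red cell list. The other way, 4 of the 16 had both KO libraries below (Ms4a1, Jchain, Igkc and Ighm), where 35.7% of all genes did. The early B cell genes Vpreb1, Vpreb2 and Vpreb3 were called higher, 3 of 16 where 0.181% of all genes were. These calls, like all others, ended with a pseudocount of 0.1 FPKM or a filter at 5 FPKM. The median macrophage gene was at 19.2 FPKM in WT replicate 1, against 37.6 and 39.0 FPKM in the KO libraries, with 10 of 14 genes above in both and a median log2 difference of 0.58. Of the neutrophil genes, 16 of 18 had both KO libraries below, where 35.7% of all genes did, with a median of -0.70. The part of these cells in the globin shares was not tested.

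The genes whose pattern over the 4 libraries was most like that of the summed adult globins included none of the red cell lists. Likeness was the root mean square distance between log2(FPKM + 1) profiles centred on their own means, over 9080 genes at a mean of 10 FPKM or more. The 8 nearest were Ppp1ca (0.11), Crip1 (0.23), Ltf (0.24), Ptprcap (0.28), Mmp9 (0.28), Lgals9 (0.29), Il31ra (0.30) and H2-D1 (0.33), which made 0 of 8 from those lists. Single adult globins lay at 0.0433 to 0.0743 from their sum. Ppp1ca, a phosphatase subunit gene, was at 533 and 0.68 FPKM in the WT pair and 642 and 701 FPKM in the KO pair. Ltf, a neutrophil granule gene, was at 2669 and 5.89 FPKM in the WT pair and 2658 and 2611 FPKM in the KO pair. The low value in WT replicate 2 dominates this measure, so it groups genes by their loss there.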

How the data were processed

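RNA was sequenced from 2 WT and 2 Fam122a KO libraries with the SMART-Seq v4 kit, per the labels' protocols. Tools and builds listed without roles in the submitters' processing notes are STAR 2.7.1a, HISAT2 2.1.0, bcl2fastq, GRCm38.p5 and mm10. The deposited values, 1 per feature with no header, were taken as FPKM from their behaviour; the tool and annotation behind them were not given in the sources used here. Low values of single-exon genes (600 to 3000 bp) fell on steps of length less 210 to 250 bases, which implied the fragment numbers given, with 81.9 to 89.7% of genes within 0.1 of a whole number. Estimated fragments and the 3-fragment floor use those offsets and the exonic length. Symbols came from GENCODE M21 for 51633 of 51912 Ensembl genes, and 35791 unnamed MSTRG loci stayed out of the tests.

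KO was compared with WT by limma 3.58.1 in R 4.3.3, with a mean-variance trend, on values of log2(FPKM + 1), which understates changes of low genes. P-values were adjusted by Benjamini-Hochberg over all genes tested and called under 0.05. The procedure was tested on simulated data. There every library was given the spread of the KO pair, so a WT library that varies more was not covered. The labels call the libraries of a group biological replicates and say no more of their origin than the pooling. The members and lists were chosen with earlier results of these data known. Named genes were all members and other globin genes, up to 4 genes with the smallest p per red cell list, the 8 nearest profiles and Fam122a, and the text gives part of them. Replicate numbers were shared between groups, and the replicate differences of WT and KO correlated at 0.0553 over 18214 genes, so the numbers were not taken as pairs. Alternatives covered the pseudocount, filter, scaling, share denominator, ratio definition, replicate block and libraries left out. Scaling by median ratio was chosen after seeing the data.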

Additional observations from a re-analysis of the deposited data

How the results depend on the processing

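The adult globins stayed above WT replicate 1 and short of the threshold in all 32 combinations of gene and setting tried (log2 differences 0.08 to 0.79, limma adjusted p = 0.238 to 0.936 where a test was possible). Leaving out a KO library there gives 1 against 1 and no test. The number of genes called against WT replicate 1 was unstable. It was 221 of 13848 (25 higher, 196 lower), 0 with a pseudocount of 0.1 FPKM (2481 higher and 1457 lower at an unadjusted p under 0.05), 0 with a filter at 5 FPKM in 2 libraries (2288 and 869), and 10026 with no filter (761 higher, 9265 lower). It was 1667 with equal sums over Ensembl genes (1128 higher, 539 lower), 1831 with equal sums without the globins (1298 higher, 533 lower), and 647 with median-ratio scaling (106 higher, 541 lower). The median of all genes moved from 0.12 to 0.33, 0.37 and -0.06 under these scalings, and the globins less that median stayed at 0.14 to 0.42. With all 4 libraries, 0 genes were called, 0 also with the replicate block (301 higher and 3900 lower at an unadjusted p under 0.05). Leaving out 1 library gave 0 to 11126 calls, 221 without WT replicate 2 and 11126 without WT replicate 1. The log2 ratio of the adult globin share, KO over WT replicate 1, was 0.66 and ranged from 0.43 to 0.86 with a KO library left out, or 0.63 to 0.77 with other denominators. That of alpha over beta was 0.21, and 0.18 to 0.24 under every alternative tried, WT replicate 2 in place of WT replicate 1 included. Depth limits the embryonic genes and every value of WT replicate 2.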
